A study of Rattus norvegicus with 18 samples.

Results

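The comparison described here sets the dorsal hippocampus of rats taken off an ethanol diet for 24 h against that of rats still on the diet. It rests on 12 of the 18 RNA-seq libraries of the study, namely the 6 labelled Withdrawal and the 6 labelled Chronic Ethanol, and on the 16336 genes with more than 0.5 CPM (TMM-normalised counts relative to library size) in at least 6 of these 12 libraries. All rats were adult male Sprague Dawley animals, bought at 75 to 85 days of age and pair-fed Lieber-DeCarli liquid diets. Ethanol was brought up to 9% (v/v) over 7 days. The ethanol rats then stayed on 9% ethanol for 16 days and were taken without withdrawal. The withdrawal rats had 15 days at 9% and then 24 h of ethanol-free control diet, so they differed from the ethanol rats both in the last day's diet and by 1 day of ethanol. The 6 control rats, which never had ethanol, did not enter the test, and their levels are given as a reference only. Each library is the bulk tissue of 1 animal, so fewer cells of a type and less RNA per cell cannot be told apart.

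Ethanol enhances inhibition at GABA-A receptors and blocks NMDA receptors, and a brain kept on ethanol for weeks adapts to both. Removal of ethanol leaves that adaptation unopposed, and the first day without it is a period of hyperexcitability, stress hormone release and low mood. In the hippocampus, strong firing is followed by transcription of immediate early genes, then of late genes such as Bdnf. Glial cells respond to injury and cytokines through STAT3, NF-kB and interferon signalling, and astrocytes, the main site of acetate use in brain, meet the products of ethanol metabolism directly.

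Total counts on genes ranged from 30873228 to 42679748 in the 12 libraries, with medians of 35649217 in the ethanol and 39044532.5 in the withdrawal rats. All 6 ethanol libraries and withdrawal libraries 1 and 2 carried the same first index sequence, whereas withdrawal libraries 3 to 6 carried another, so index and group overlap in part. Values for the 2 withdrawal rats that shared the index of the ethanol rats are therefore given beside the pooled medians of the main lists. The 6 control libraries all carried a further index that none of the 12 had, so control levels cannot be told apart from index. Withdrawal rats 4 and 5 stood apart in tissue content, since transcripts of the choroid plexus were nearly absent in both. Withdrawal rat 1, 1 of the 2 withdrawal rats with the shared index, had the highest levels of many activity and cytokine genes, and ethanol rat 5 the highest Fos.

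No gene passed q < 0.1 in the limma-voom fit of the 12 rats (0% of the genes tested in either direction), and the lowest q was 0.158, shared by 31 genes. An unadjusted p under 0.05 was found for 2346 genes (14.4%), of which 1120 (6.86%) were higher and 1226 (7.5%) lower in withdrawal. The quasi-likelihood test of edgeR called 0 genes as well, with 2465 at an unadjusted p under 0.05, whereas DESeq2 called 722. The outcome depended on the rats in the fit. Without ethanol rat 5, 724 genes were called, 370 higher (2.26%) and 354 lower (2.17%), and without withdrawal rat 2, 9 were called. With the control rats added to the model, so that all 18 rats set the spread, 697 genes were called for the same contrast, 351 higher (2.15%) and 346 lower (2.12%). Of the genes called without ethanol rat 5 and those called in the 18-rat model, 462 were shared, which is 63.8% of the former and 66.3% of the latter. Within the shared index (6 ethanol and 2 withdrawal rats) 0 genes were called and 1023 had an unadjusted p under 0.05. The genes below are accordingly described by their range over the rats, by the unadjusted p and by q, and a value in brackets after a gene is its log2 fold change, with its SE where one is given. The words higher and lower describe the direction of the fitted difference and not a call. Counts of list members with an unadjusted p under 0.05 stand against 6.86% of all genes higher and 7.5% lower.

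**Figure D1:**
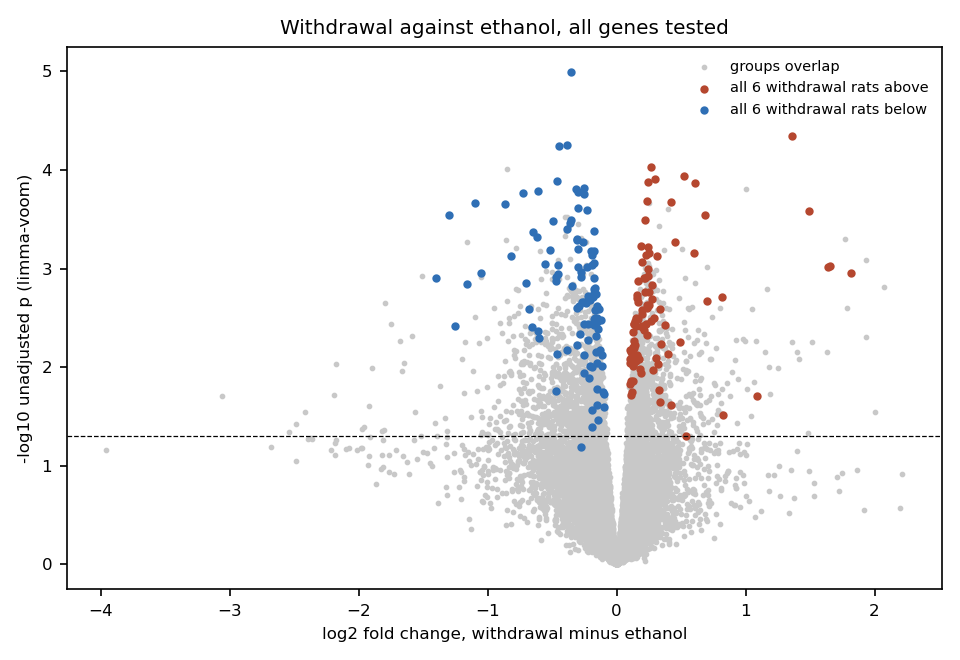
Points are the 16336 genes tested with limma-voom in all 12 rats, with the log2 fold change (withdrawal minus ethanol) on the x axis and the unadjusted p, as −log10, on the y axis and a dashed line at 0.05. The 93 genes with all withdrawal rats above all ethanol rats are red and the 104 with all below are blue, and most of both lie within a log2 fold change of 1.

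The groups did not overlap for 197 genes (1.21% of those tested). In 93 of them (0.569%) every withdrawal rat was above every ethanol rat, and in 104 (0.637%) every withdrawal rat was below. The differences were small. The median log2 fold change was 0.23 in the 93 genes and −0.25 in the 104, and 12 and 17 of them, respectively, exceeded 1.5-fold. The mean of the control rats lay between the means of the other groups for 88 of the 93 and 90 of the 104 genes, and it was nearer to the withdrawal mean for 45 and 59 of them. Among the 93 genes, ethanol rat 5 was the ethanol rat closest to the withdrawal range in 42, and withdrawal rat 1 was the highest withdrawal rat in 39. In the 18-rat model, which holds the same 12 rats, 70 of the 93 (2.15% of all genes higher) and 83 of the 104 genes (2.12% lower) were called. These genes were picked for their separation in those rats, so nothing is read from these counts.

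The 15 largest differences among the genes above the ethanol range, by a rule applied after the values were seen, included the complement gene C4b and the cytokine receptor gene Osmr. Ddx60, an RNA helicase of antiviral defence, ranged from 0.187 to 0.796 CPM (median 0.413) on ethanol and 0.844 to 3.13 CPM (median 1.19) in withdrawal, with a log2 fold change of 1.82 ± 0.43 (SE, unadjusted p = 0.001098, q = 0.181). Apol9a, an apolipoprotein L family gene, was at 0.249 to 1.16 CPM (median 0.831) in ethanol and at 1.52 to 3.99 CPM (median 2.38) in withdrawal, a difference of 1.66 ± 0.39 on the log2 scale. Both are low genes, and their lowest withdrawal rats stood above the highest ethanol rats. Upp1, which releases uracil from uridine, was at 3.12 to 4.57 CPM (median 3.67) in ethanol and at 5.01 to 12.6 CPM (median 6.24) in withdrawal (log2 fold change 0.81 ± 0.21). Withdrawal rat 1 was the highest for this gene, and without it the log2 fold change was 0.66. The remaining members of the 15 were Oas1b, C4b, Inhba, Osmr, Gbp7, Relb and Nasp, described below, Myh2 (0.70 ± 0.18), Arhgap19 (0.52 ± 0.09), Spetex2el2 (0.49 ± 0.15), Fxyd5 (0.45 ± 0.10) and Cemip2 (0.42 ± 0.08). Cemip2, a cell-surface hyaluronidase, was at 15.5 to 22.6 CPM (median 18.9) on ethanol and 23.3 to 27.4 CPM (median 25.04) in withdrawal, and its control median of 24.3 CPM lay within the withdrawal range.

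The 15 largest differences below the ethanol range were named by the same rule. Vwa3a, a gene of ciliated cells, was at 49.9 to 72.8 CPM (median 55.8) on ethanol and 32.9 to 45.3 CPM (median 35.1) in withdrawal, a log2 fold change of -0.61 ± 0.12 (SE, unadjusted p = 1.64e-04, q = 0.158). Ccdc33 (-1.05 ± 0.25), also known from ciliated cells and testis, and Ccdc13 (-0.56 ± 0.13), a centrosomal protein gene, were lower in each withdrawal rat too. Nsmf, which carries NMDA receptor signals to the nucleus, was at 873 to 1026 CPM (median 971) on ethanol and 383 to 856 CPM (median 796) in withdrawal. Its lowest value was that of withdrawal rat 5, and the log2 fold change was -0.47 ± 0.17 over the 12 rats and -0.31 without withdrawal rats 4 and 5. Ppdpf was at 28.7 to 42.4 CPM (median 36.6) on ethanol and 24.7 to 27.9 CPM (median 25.995) in withdrawal (log2 fold change -0.46 ± 0.09). The others were Rhd (-1.30 ± 0.26), Atp2a1 (-1.25 ± 0.35), Klhl33 (-0.87 ± 0.17), Map3k21 (-0.70 ± 0.17), Ssc4d (-0.61 ± 0.17), Nkain4 (-0.52 ± 0.12), Slc26a10 (-0.50 ± 0.10), Prob1 (-0.47 ± 0.12), Cyp4f4 (-0.45 ± 0.11) and Cib1 (-0.45 ± 0.10). The lowest p of all genes tested was that of Ap1g2, a subunit of a clathrin adaptor complex of the trans-Golgi network, at 22.1 to 25.4 CPM (median 24.8) on ethanol and 17.6 to 19.7 CPM (median 19.2) in withdrawal and a log2 fold change of -0.35 ± 0.05 (SE, unadjusted p = 1.01e-05, q = 0.158).

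Over all 12 rats, interferon-induced genes had the highest median of the lists. All 22 members tested had positive log2 fold changes, against 49.1% of all genes tested, 11 had an unadjusted p under 0.05 (6.86% of all genes), and the median log2 fold change was 0.51 against −0.003 over all genes. For none of the 22 were all withdrawal rats above all ethanol rats (0.569% of all genes). Interferons act through the receptor-bound kinases JAK1 and TYK2. The transcription factors these activate join IRF9 and bind an interferon-stimulated response element before the start sites of antiviral genes. The element holds repeats of GAAA spaced by a pair of bases, and its short core GAAANNGAA (either strand, N any base) was looked up in the RefSeq promoters of build GRCr8, which run from 250 bases before to 50 bases after each start. The motif was added after the values were seen. It occurred in 10 of the 17 promoters matched to list members (58.8%), in 7.32% of the 12314 promoters of tested genes, and in 9.5% of all 27457 promoters. The promoters of 4 interferon-induced genes, 2 of them outside the list, are shown. They were picked for holding the core and for their higher levels in withdrawal, and each is written 5′ to 3′ on the strand of the gene with the core in capitals. Ifit3 is at chr1:241527076-241527375 on the plus strand, and Irf7 (chr1:205799974-205800273), Ddx60 (chr16:33208790-33209089) and Oas1b (chr12:41395803-41396102) are on the minus strand.
Ifit3: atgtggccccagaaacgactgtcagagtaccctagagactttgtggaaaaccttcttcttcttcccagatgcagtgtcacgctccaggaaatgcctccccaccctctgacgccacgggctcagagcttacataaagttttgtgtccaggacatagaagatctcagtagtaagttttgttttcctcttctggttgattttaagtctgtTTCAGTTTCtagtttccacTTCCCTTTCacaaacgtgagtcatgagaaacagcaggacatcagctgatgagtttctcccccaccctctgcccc
Irf7: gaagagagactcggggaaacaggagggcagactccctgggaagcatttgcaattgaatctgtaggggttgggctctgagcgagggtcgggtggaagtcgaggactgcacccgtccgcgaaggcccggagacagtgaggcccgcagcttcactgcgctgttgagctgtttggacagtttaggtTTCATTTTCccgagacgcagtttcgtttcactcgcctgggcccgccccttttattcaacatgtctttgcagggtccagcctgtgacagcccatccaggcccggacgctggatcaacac
Ddx60: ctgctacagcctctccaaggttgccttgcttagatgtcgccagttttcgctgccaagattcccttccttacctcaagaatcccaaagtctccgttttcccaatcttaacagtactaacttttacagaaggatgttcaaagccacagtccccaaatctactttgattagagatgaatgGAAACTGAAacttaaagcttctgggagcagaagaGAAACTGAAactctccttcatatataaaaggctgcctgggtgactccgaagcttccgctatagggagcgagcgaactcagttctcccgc
Oas1b: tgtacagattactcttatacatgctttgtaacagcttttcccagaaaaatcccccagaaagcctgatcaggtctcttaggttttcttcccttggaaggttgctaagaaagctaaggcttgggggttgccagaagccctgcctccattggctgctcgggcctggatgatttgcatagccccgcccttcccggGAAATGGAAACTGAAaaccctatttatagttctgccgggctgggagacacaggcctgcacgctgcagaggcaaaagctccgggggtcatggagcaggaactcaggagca
The cores lay 43 and 24 bases before the start in Ifit3, 68 in Irf7, 73 and 39 in Ddx60 and 59 and 53 in Oas1b, where the 2 matches overlap. No match was found in the windows of Oasl and Irf9. A match of these letters is a description of the sequence and not evidence of binding.

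The levels of these genes were low and their spread large. Oas1b, an oligoadenylate synthetase gene that confers flavivirus resistance in rodents, was at 0.431 to 1.36 CPM (median 0.705) on ethanol and 1.43 to 4.68 CPM (median 2.11) in withdrawal, with a log2 fold change of 1.64 ± 0.38 (SE, unadjusted p = 9.63e-04, q = 0.181). Ifit3, an antiviral protein of the tetratricopeptide family, was at 0.498 to 2.95 CPM (median 1.45) on ethanol and 2.697 to 8.78 CPM (median 4.01) in withdrawal, a log2 fold change of 1.79 ± 0.48. Irf7, the transcription factor that amplifies the type I interferon response, was at 1.45 to 5.57 CPM (median 2.72) on ethanol and 4.58 to 17.2 CPM (median 6.298) in withdrawal (1.52 ± 0.45). In all 3 genes withdrawal rats 4 and 5 were the highest, and the groups overlapped for Ifit3 and Irf7. Oasl had the largest difference of the list, from 0.0807 to 0.5603 CPM (median 0.206) on ethanol and 0.506 to 1.92 CPM (median 0.952) in withdrawal, and a log2 fold change of 1.94 ± 0.44 (SE, unadjusted p = 8.22e-04, q = 0.181). Isg15, a ubiquitin-like protein coupled to other proteins after interferon, was at 0.7804 to 2.33 CPM (median 1.26) on ethanol and 1.53 to 5.77 CPM (median 2.85) in withdrawal (1.18 ± 0.39). Gbp7, a guanylate-binding protein gene outside the list, was at 1.61 to 2.57 CPM (median 2.14) on ethanol and 2.77 to 4.05 CPM (median 3.47) in withdrawal, with no overlap and a log2 fold change of 0.68 ± 0.14 (SE, unadjusted p = 2.83e-04, q = 0.158). The control median of 2.74 CPM lay between the ranges. The control medians of Irf7 (5.76 CPM) and Oas1b (1.43 CPM) were above every value of the ethanol rats.

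The size of the interferon difference rested in part on withdrawal rats 4 and 5. Without both, the median of the 22 genes was 0.25, below those of the late activity-regulated (0.36), MAP kinase feedback (0.35) and reactive astrocyte genes (0.28), and 21 of the 22 stayed positive. The median was 0.32 over the rats that shared the index of the ethanol libraries, where 19 of 22 were positive. There 5 lists had a larger median, namely the globin and blood (0.61), late activity-regulated (0.48), MAP kinase feedback (0.44), immediate early (0.33) and reactive astrocyte genes (0.32). Each rested largely on 1 of the 2 withdrawal rats. Against the mean of the 12 rats, withdrawal rats 1 and 2 had log2 medians of 0.76 and -0.03 for the late list. They stood at 0.49 and 0.05 for MAP kinase feedback and at 0.79 and -0.03 for immediate early genes. For reactive astrocyte genes they were at 0.56 and -0.02, and for globin and blood genes at -0.33 and 1.16. Within the shared index Irf7 stood at 0.93 and Oas1b at 1.24. In the 18-rat model 7 of the 22 genes were called (2.15% of all genes higher), and 3 without ethanol rat 5 (2.26%), all of them higher. Further members with an unadjusted p under 0.05 included Irf9 (0.63), Oas1a (1.36), Ifitm3 (0.69), Usp18 (1.25), Bst2 (0.56) and Gbp2 (0.65). Oas1a, Oas1b and Oasl are related in sequence, and reads with several mapping positions were left uncounted, so their separate levels are uncertain. The same 2 rats lacked choroid plexus transcripts (below), and the part of this in the interferon values was not tested.

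**Figure D2:**
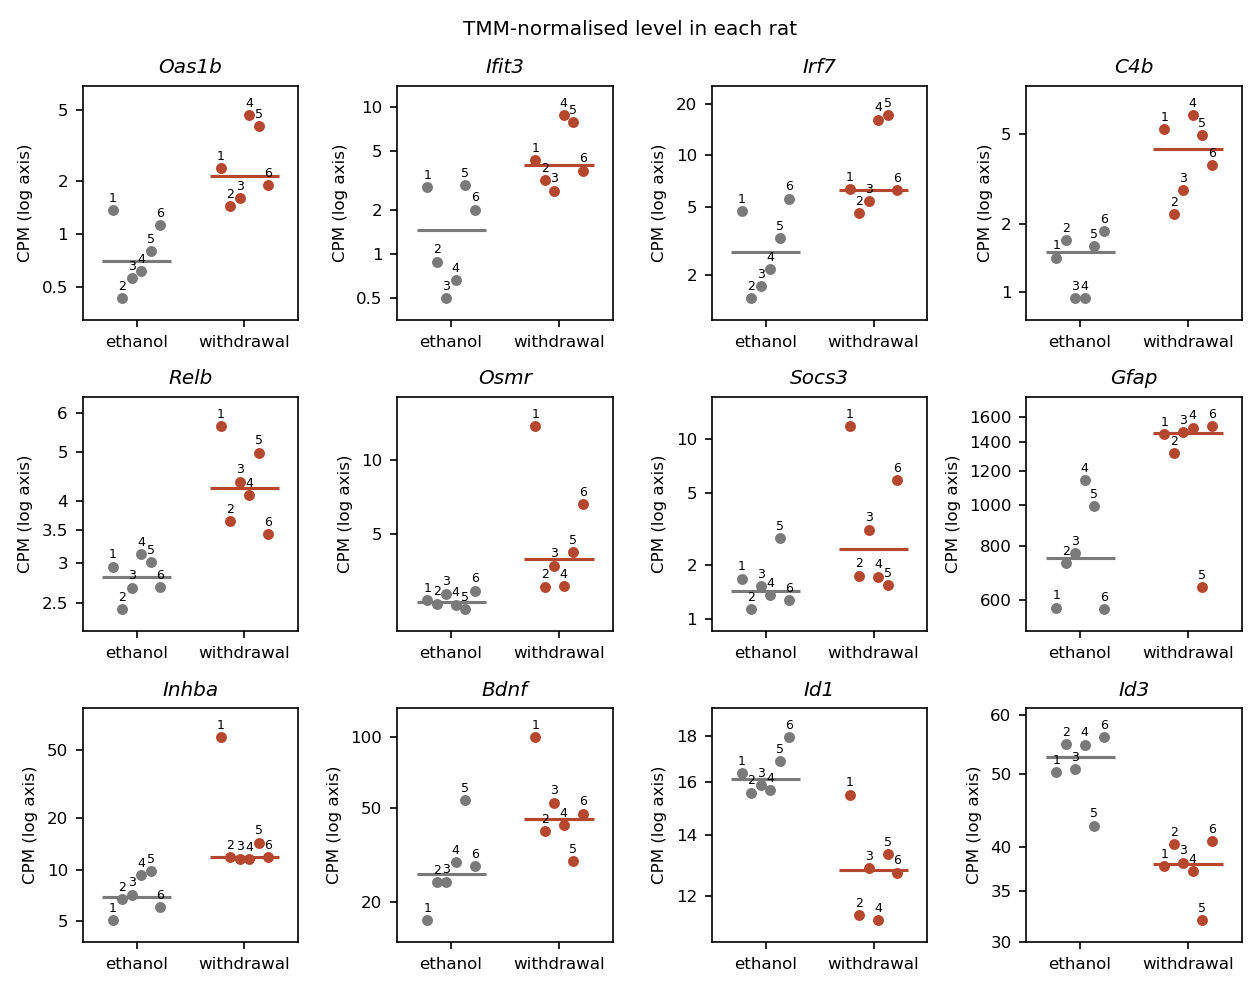
Each panel gives 1 gene as TMM-normalised CPM on a log axis for the 6 ethanol (grey) and 6 withdrawal rats (red), numbered by rat, with the median as a line. Oas1b, C4b, Relb, Osmr and Inhba lie above the ethanol range in every withdrawal rat and Id1 and Id3 below it, while rat 1 is the highest withdrawal rat for Osmr, Socs3, Inhba and Bdnf.

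Complement and microglial genes differed in a few members. C4b, a component of the classical pathway that tags material for removal, was at 0.934 to 1.86 CPM (median 1.504) on ethanol and 2.21 to 6.07 CPM (median 4.29) in withdrawal, a log2 fold change of 1.49 ± 0.30 (SE, unadjusted p = 2.62e-04, q = 0.158), and every withdrawal rat was above every ethanol rat. Cfb, the alternative pathway factor, was at 5.07 to 10.9 CPM (median 6.65) on ethanol and 8.74 to 17.3 CPM (median 12.1) in withdrawal (0.73 ± 0.24), and C1qb, made by microglia, at 21.7 to 27.01 CPM (median 22.7) on ethanol and 23.6 to 35.7 CPM (median 29.3) in withdrawal (0.34 ± 0.10). These were the 3 of 16 complement genes with an unadjusted p under 0.05, all higher, and all 3 were called in the 18-rat model (2.15% of all genes higher) with q = 0.0317, 0.0897 and 0.06597. The median of the complement list was 0.05 (0.14 over the rats that shared the index). Of 17 microglial markers, Itgam (0.37), Trem2 (0.35) and Tyrobp (0.27) were higher at an unadjusted p under 0.05 and 1 marker was lower. The summed level of the markers overlapped between the groups, at 510.5 to 561 CPM in ethanol and 476 to 603 CPM in withdrawal.

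Among the NF-kB genes, Relb and Nfkb2 belong to the non-canonical branch, in which RELB and p52, the processed product of Nfkb2, carry the signal of a few TNF receptor family members. Relb was at 2.42 to 3.12 CPM (median 2.82) on ethanol and 3.42 to 5.64 CPM (median 4.23) in withdrawal, with a log2 fold change of 0.60 ± 0.13 (SE, unadjusted p = 6.96e-04, q = 0.175). Nfkb2 was at 3.58 to 4.85 CPM (median 4.31) on ethanol and 5.04 to 7.95 CPM (median 5.296) in withdrawal, and its log2 fold change was 0.40 ± 0.13. All withdrawal rats were above all ethanol rats for both, with rat 1 the highest, and without rat 1 the log2 fold changes were 0.53 and 0.32. Traf1, an adaptor of TNF receptors, lay the other way, with every withdrawal rat below the ethanol range, at 0.623 to 1.42 CPM (median 0.982) on ethanol and 0.166 to 0.586 CPM (median 0.491) in withdrawal (-1.16 ± 0.29). Of 22 members tested, 19 were higher, and 7 higher and 1 lower had an unadjusted p under 0.05, among them Vcam1 (0.24), Chuk (0.15), Nfkbib (0.20) and Tnfaip3 (0.38). The median was 0.12 over the 12 rats and 0.19 over the rats that shared the index. In the 18-rat model 5 were called higher and 1 lower, against 2.15% and 2.12% of all genes.

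The study followed STAT3 and the genes it controls in astrocytes. STAT3 relays cytokines of the interleukin-6 family, such as LIF and oncostatin M, to genes of reactive gliosis, and SOCS3 is its feedback inhibitor. Stat3 was at 58.05 to 70.7 CPM (median 61.7) on ethanol and 63.8 to 104 CPM (median 67.6) in withdrawal, with a log2 fold change of 0.21 ± 0.11 (SE, unadjusted p = 0.07904, q = 0.387). Socs3 was at 1.13 to 2.81 CPM (median 1.44) on ethanol and 1.54 to 11.8 CPM (median 2.44) in withdrawal and had a log2 fold change of 0.99 ± 0.50 (SE, unadjusted p = 0.07195, q = 0.3798). The ranges overlapped for both, and withdrawal rat 1 was the highest. Without it the log2 fold changes were 0.12 for Stat3 and 0.66 for Socs3. Osmr, the oncostatin M receptor, was at 2.47 to 2.95 CPM (median 2.65) on ethanol and 3.06 to 13.8 CPM (median 3.98) in withdrawal, so every withdrawal rat was above the ethanol range, although the smallest gap was narrow. Its log2 fold change was 0.82 ± 0.34 (SE, unadjusted p = 0.0307, q = 0.304), and 0.57 without rat 1. Lif was at 0.148 to 0.5396 CPM (median 0.274) on ethanol and 0.517 to 3.68 CPM (median 0.755) in withdrawal (1.63 ± 0.51). Tnfrsf1a, the main receptor of TNF, was at 10.6 to 13.2 CPM (median 12.5) on ethanol and 12.5 to 25.8 CPM (median 14.6) in withdrawal, a log2 fold change of 0.40 ± 0.17 (SE, unadjusted p = 0.0385, q = 0.321). Timp1, an inhibitor of matrix metalloproteinases, was at 1.15 to 4.72 CPM (median 2.16) on ethanol and 2.27 to 18.9 CPM (median 3.54) in withdrawal (0.84 ± 0.52, unadjusted p = 0.127, q = 0.448). In the 18-rat model q was 0.233 for Stat3, 0.223 for Socs3, 0.149 for Osmr, 0.162 for Tnfrsf1a and 0.302 for Timp1, so none of these 5 passed there either. The paper's quantitative PCR differences for Stat3, Osmr, Tnfrsf1a and Timp1 were between withdrawal and control diet. That contrast is not the one made here. Of 28 STAT3 pathway genes 20 were higher and 7 had an unadjusted p under 0.05, all higher, and the median was 0.14 (0.13 over the rats that shared the index). In the 18-rat model 2 of the 28 were called, both higher (2.15% of all genes), and 1 without ethanol rat 5 (2.26%).

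Gfap, the intermediate filament gene of astrocytes, was at 570.1 to 1141 CPM (median 750.3) on ethanol and 642 to 1524 CPM (median 1471) in withdrawal, a log2 fold change of 0.73 ± 0.23 (SE, unadjusted p = 0.00824, q = 0.219). Of the withdrawal rats, 5 were above the highest ethanol rat, and rat 5 was in the lower part of the ethanol range. Gfap passed in the 18-rat model (q = 0.0727), where 2.15% of all genes were called higher, and the control median was 942 CPM, within the ethanol range. Emp1, a membrane protein gene of reactive astrocytes, was at 4.95 to 8.96 CPM (median 5.899) on ethanol and 6.68 to 24.04 CPM (median 11.3) in withdrawal (0.92 ± 0.30), and Cd44, the hyaluronan receptor, at 11.8 to 16.6 CPM (median 14.6) on ethanol and 16.04 to 40.1 CPM (median 20.4) in withdrawal (0.65 ± 0.22). Of 27 reactive astrocyte genes 21 were higher, 5 of them with an unadjusted p under 0.05, and the median was 0.22 (0.32 over the rats that shared the index). In the 18-rat model 3 of the 27 were called, all higher (2.15% of all genes), and 0 without ethanol rat 5 (2.26%). Withdrawal rats 1 and 6 were the highest for this list and withdrawal rat 4 the lowest of all 12. The 18 homeostatic astrocyte genes had a median of 0.08, with Glul (0.26), the glutamine synthetase gene, and Kcnj10 (0.23), an inward rectifier potassium channel gene, at an unadjusted p under 0.05.

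**Figure D3:**
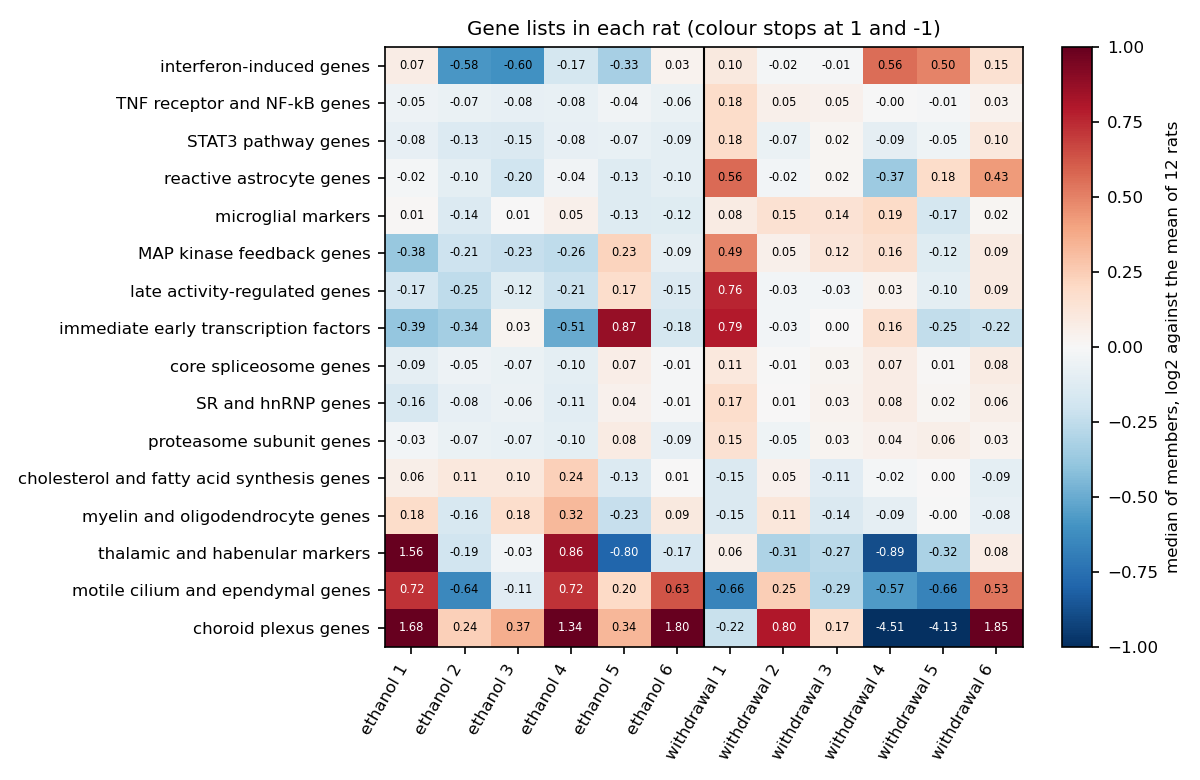
Rows are 16 gene lists and columns the 12 rats, and each cell gives the median over the members of log2(CPM + 0.5) minus the mean of the 12 rats. Withdrawal rats 4 and 5 hold the highest interferon and the lowest choroid plexus values, and withdrawal rat 1 and ethanol rat 5 the highest immediate early values.

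Genes of RNA processing showed small differences, most of them higher in withdrawal. The spliceosome removes introns with small nuclear ribonucleoproteins, and SR and hnRNP proteins guide it to or away from splice sites. Of 45 core spliceosome genes 37 were higher, 18 with an unadjusted p under 0.05 and none lower at that p, and of 39 SR and hnRNP genes 36 were higher, 12 with such a p. The medians were 0.10 and 0.11. Hnrnpa3 was at 464 to 537 CPM (median 488) on ethanol and 544 to 611 CPM (median 569.9) in withdrawal, with no overlap and a log2 fold change of 0.22 ± 0.04 (SE, unadjusted p = 3.21e-04, q = 0.159). Snrpa, a protein of the U1 particle, was at 10.8 to 12.9 CPM (median 12.02) on ethanol and 12.5 to 17.4 CPM (median 15.96) in withdrawal (0.37 ± 0.08, unadjusted p = 6.50e-04, q = 0.173). Prpf8, the scaffold at the catalytic centre, was at 276 to 349.6 CPM (median 289.6) on ethanol and 339 to 376 CPM (median 344) in withdrawal (0.23 ± 0.06, unadjusted p = 0.001404, q = 0.187). Ethanol rat 5 was the highest ethanol rat for all 3 and lay within the withdrawal range for Snrpa and Prpf8. Pcbp1, a poly(C)-binding protein gene, was at 125 to 148 CPM (median 131) on ethanol and 147 to 172 CPM (median 151) in withdrawal (0.21 ± 0.05). Dhx9, an RNA helicase gene, is outside both lists and was named after its values were seen. It was at 123 to 149 CPM (median 134) on ethanol and 151 to 180.2 CPM (median 169) in withdrawal without overlap, a log2 fold change of 0.30 ± 0.06 (SE, unadjusted p = 1.23e-04, q = 0.158). In the 18-rat model 8 core and 7 SR and hnRNP genes were called, against 2.15% of all genes higher. Without ethanol rat 5 these counts were 11 and 7, against 2.26%, all higher. Within the shared index 40 of the 45 and 36 of the 39 were positive, with medians of 0.09 and 0.13.

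Most proteasome subunit genes were also higher by small amounts. The proteasome degrades ubiquitin-tagged proteins, and 28 of its 31 subunit genes tested were higher, 9 with an unadjusted p under 0.05, at a median of 0.09 (0.10 over the rats that shared the index). In the 18-rat model 2 were called, both higher (2.15% of all genes), and 7 without ethanol rat 5, all higher (2.26%). Psmd14, the deubiquitinase of the lid, was at 55.9 to 67.5 CPM (median 60.7) on ethanol and 66.5 to 73.1 CPM (median 68.8) in withdrawal (0.19 ± 0.05, unadjusted p = 0.00193, q = 0.189). Of 23 cell cycle genes 18 were higher and 4, all of them higher, had an unadjusted p under 0.05, at a median of 0.15 (0.20 over the rats that shared the index). These were Mcm3 at 1.21 to 2.02 CPM (median 1.38) on ethanol and 1.69 to 2.84 CPM (median 2.12) in withdrawal (0.58 ± 0.15, unadjusted p = 0.00244, q = 0.189), Mcm5 at a log2 fold change of 0.62, Mcm6 at 0.51 and Pcna at 0.15. The other subunits of the MCM helicase, which licenses replication origins, had log2 fold changes of 0.28 for Mcm4, 0.10 for Mcm2 and 0.09 for Mcm7, none at such a p. Nasp, a histone H1 chaperone outside the list, was at 22.8 to 32.4 CPM (median 31.3) on ethanol and 32.7 to 107 CPM (median 37.1) in withdrawal without overlap, but rat 1 alone reached the top value, and without it the log2 fold change went from 0.53 ± 0.25 to 0.29. Dnmt1, the maintenance DNA methyltransferase, was at 34.6 to 41.7 CPM (median 37.98) on ethanol and 42.2 to 47.4 CPM (median 43.9) in withdrawal, again without overlap (0.22 ± 0.05, unadjusted p = 0.00124, q = 0.181). It was the 1 gene of 21 histone deacetylase and DNA methylation genes with an unadjusted p under 0.05.

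Further genes above the ethanol range in every withdrawal rat were chosen after their values were seen and form no list. Cltc, the clathrin heavy chain, was at 772 to 860.01 CPM (median 816) on ethanol and 908 to 1028 CPM (median 957) in withdrawal, with a log2 fold change of 0.24 ± 0.04 (SE, unadjusted p = 1.32e-04, q = 0.158). Eea1, an early endosome tether, was at 45.1 to 54.1 CPM (median 49.6) on ethanol and 56.5 to 59.4 CPM (median 58.3) in withdrawal (0.23 ± 0.05), and Fermt2, an integrin activator, at 140.3 to 149 CPM (median 143) on ethanol and 158 to 189.5 CPM (median 173) in withdrawal (0.26 ± 0.05). The medians of the control rats for Cltc (907 CPM) and Eea1 (56.5 CPM) were close to the lowest withdrawal values, and that for Fermt2 (143 CPM) within the ethanol range. Tagln2, an actin-binding protein gene, was at 19.3 to 22.5 CPM (median 20.5) on ethanol and 22.8 to 30.7 CPM (median 26.1) in withdrawal (0.32 ± 0.07). Eprs1 (0.25 ± 0.06), a tRNA synthetase gene, and Slc7a5 (0.23 ± 0.05), a carrier of large neutral amino acids, were also above the ethanol range in every withdrawal rat. The 26 endoplasmic reticulum stress genes split 13 to 13 in direction, with Atf4 (0.25 ± 0.09, unadjusted p = 0.0136, q = 0.246) higher and Sdf2l1 (-0.28) lower at an unadjusted p under 0.05.

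The balance of long against short genes separated the groups. For each rat, the median deviation of the 3267 genes with the longest exonic sequence (over 5579 bases) minus that of the 3269 shortest genes (up to 1596 bases) was computed on the log2 scale. It ran from −0.11 to 0.00087 in the ethanol rats (median −0.020) and from 0.0087 to 0.039 in the withdrawal rats (median 0.023), so that the groups did not overlap (two-sided exact permutation test p = 0.00216, the smallest that 6 against 6 allow). Gene length had been planned as a description with no test. Complete separation fixes this p at its floor, so it only restates the lack of overlap. Withdrawal rats 1 and 2, which shared the index of the ethanol rats, were at 0.0087 and 0.033, and the other withdrawal libraries carried another index. Ethanol rat 1 lay far below the other ethanol rats, of which the next was at −0.021. In the control rats it ran from −0.011 to 0.10 against the same means. Accordingly 41.4% of the shortest and 56.3% of the longest genes were higher in withdrawal. The median exonic length was 4483 bases for the 93 genes above the ethanol range, 2193 for the 104 below it and 3045 for all genes tested.

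With each library's trend on length taken out, an alternative added after the values were seen, 0 genes were called and 2330 had an unadjusted p under 0.05. The log2 fold changes were then positive in 56.6% of all genes and their median was 0.024. The 70 cytosolic ribosomal protein genes, which are short (median 609 bases), went from 63 lower and a median of -0.06 to 43 higher and a median of 0.01. The 55 nuclear oxidative phosphorylation genes went from 29 to 47 higher. The core spliceosome genes went from 37 to 44 of 45 higher (median 0.13), SR and hnRNP genes from 36 to 37 of 39 (0.14) and proteasome genes from 28 to 31 of 31 (0.14). The interferon median was 0.52. The step raised the median of the shortest genes most and that of the longest least, so the counts of positive values in lists of short genes partly hold it, and the ribosomal median stayed below the median of all genes. The cause of the trend was not tested.

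**Figure D4:**
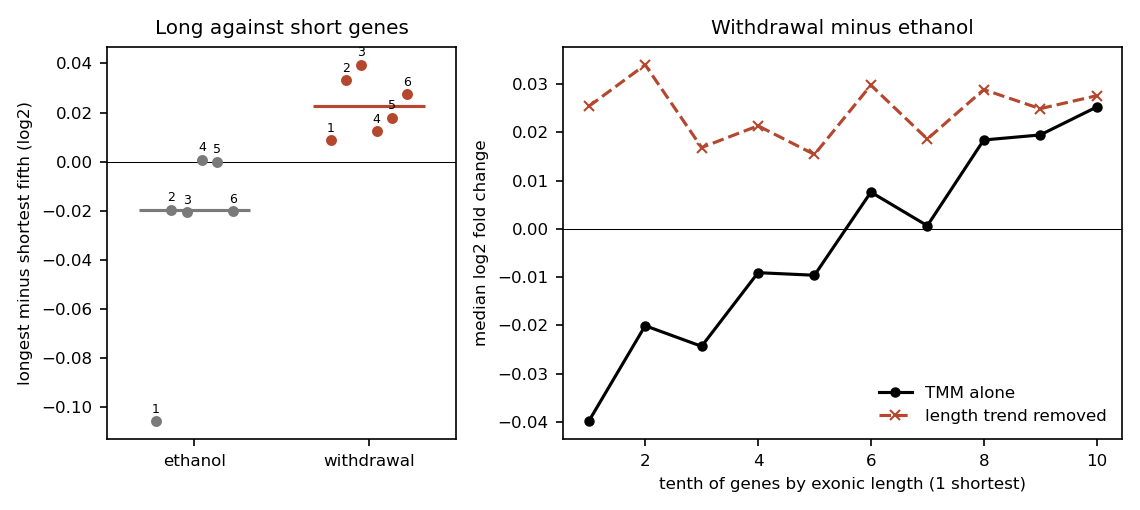
On the left, each point is 1 rat and gives the median log2 deviation of the 3267 longest genes minus that of the 3269 shortest, with the group median as a line, and all withdrawal rats lie above all ethanol rats. On the right, the median log2 fold change (withdrawal minus ethanol) is plotted for genes binned by exonic length into deciles, from −0.040 in the shortest to 0.025 in the longest, and the red line, with the length trend removed, stays between 0.015 and 0.034.

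Of the activity-regulated genes, 21 of 28 late genes and 12 of 21 immediate early factors were higher in withdrawal. Bdnf, the neurotrophin of activity-dependent plasticity, was at 16.7 to 54.1 CPM (median 26.4) on ethanol and 29.8 to 99.7 CPM (median 44.9) in withdrawal, with a log2 fold change of 0.79 ± 0.29 (SE, unadjusted p = 0.0189, q = 0.271), and 0.59 without withdrawal rat 1. Inhba, which encodes an activin subunit induced by synaptic NMDA receptors, was at 5.05 to 9.77 CPM (median 6.91) on ethanol and 11.5 to 59.3 CPM (median 11.8) in withdrawal with no overlap (1.08 ± 0.41, unadjusted p = 0.0197, q = 0.274). Withdrawal rat 1 was far above the rest for Inhba, and without it the log2 fold change was 0.76 and all other withdrawal rats stayed above the ethanol range. Fos, the first-wave transcription factor, was at 8.54 to 68.1 CPM (median 13.7) on ethanol and 11.3 to 26.7 CPM (median 12.9) in withdrawal, a log2 fold change of -0.18 ± 0.44 (SE, unadjusted p = 0.695, q = 0.875). Its highest value was that of ethanol rat 5, and without that rat the log2 fold change turned to 0.24. Maff, a small MAF factor, was at 0.996 to 2.53 CPM (median 1.503) on ethanol and 1.88 to 12.7 CPM (median 3.62) in withdrawal (1.42 ± 0.45). The late list had a median of 0.26, which was 0.12 without withdrawal rat 1 and 0.48 over the rats that shared the index, and its members with an unadjusted p under 0.05 were Bdnf, Inhba, Vgf (0.60) and Scg2 (0.29). The immediate early factors had a median of 0.07, with 0.33 over the rats that shared the index, 0.32 without ethanol rat 5 and -0.05 without withdrawal rat 1.

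Feedback genes of the MAP kinase pathway are transcribed when ERK is active and restrain it. Of 15 tested, 13 were higher and 6 had an unadjusted p under 0.05, with a median of 0.32 (0.44 over the rats that shared the index, 0.19 without withdrawal rat 1). Spred3 was at 19.3 to 39.96 CPM (median 26.5) on ethanol and 32.7 to 50.9 CPM (median 37.8) in withdrawal (0.53 ± 0.15, unadjusted p = 0.00424, q = 0.199) and Spry4 at 10.7 to 18.6 CPM (median 13.7) on ethanol and 15.9 to 20.3 CPM (median 16.8) in withdrawal (0.36 ± 0.11, unadjusted p = 0.00808, q = 0.218). Both were called higher without ethanol rat 5, as were 2.26% of all genes (q = 0.0471 and 0.0518), which was the highest ethanol rat for each. Spred2 (0.41), Spred1 (0.24), Spry2 (0.47) and Dusp7 (0.17) made up the rest, and the phosphatase gene Dusp1 had a log2 fold change of -0.47. Etv4, an ETS factor downstream of the same pathway, and Vegfa, an angiogenic growth factor, are outside the list and were named after their values were seen. Etv4 was at 4.57 to 11.4 CPM (median 6.86) on ethanol and 9.73 to 16.7 CPM (median 14.4) in withdrawal, a log2 fold change of 1.00 ± 0.19 (SE, unadjusted p = 1.57e-04, q = 0.158). Vegfa was at 130.4 to 153 CPM (median 144) on ethanol and 151 to 290.3 CPM (median 201) in withdrawal (0.53 ± 0.13, unadjusted p = 0.00125, q = 0.181).

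The receptors and channels on which ethanol acts showed few differences. None of the 6 NMDA receptor subunits and none of the 14 GABA-A receptor subunits had an unadjusted p under 0.05, and the medians were 0.04 (0.09 over the rats that shared the index) and 0.03 (-0.03 over the rats that shared the index). Gabrd, the delta subunit of extrasynaptic receptors, was at 27.7 to 96.2 CPM (median 37.7) on ethanol and 22.7 to 41.3 CPM (median 35.2) in withdrawal (-0.47 ± 0.28, unadjusted p = 0.113, q = 0.431), and its top value came from ethanol rat 1, which also had the highest thalamic markers. Cacnb3, an auxiliary subunit of voltage-gated calcium channels, was at 139.9 to 163 CPM (median 159) on ethanol and 92.6 to 139.5 CPM (median 134) in withdrawal, so every withdrawal rat was below (-0.31 ± 0.09, unadjusted p = 0.00596, q = 0.207). Cacna1c (-0.27), the Cav1.2 pore, and Cacnb2 (-0.23) were the other calcium channel genes of 15 with an unadjusted p under 0.05, all 3 lower. Of the 15, however, 10 were higher, and the median was 0.05 (0.07 over the rats that shared the index). Kcnmb4, the neuronal beta subunit of BK channels, a known target of ethanol, was at 42.01 to 51.2 CPM (median 47.4) on ethanol and 25.98 to 45.2 CPM (median 38.8) in withdrawal (-0.36 ± 0.11, unadjusted p = 0.007097, q = 0.211). Of 42 potassium channel genes 4 were higher and 1 lower at an unadjusted p under 0.05. Of 34 vesicle release genes 2 were higher and 1, Syt7 (-0.27), lower at that p. Over all genes, 6.86% were higher and 7.5% lower at that p. AMPA and kainate receptor genes had 1 of 20, Cacng3 (0.34), at that p, and sodium and HCN channel genes 0 of 12.

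Of 19 neuropeptide genes 7 were higher and 12 lower, and 3 higher and 2 lower had an unadjusted p under 0.05. Cort, the somatostatin relative cortistatin that depresses cortical activity and promotes sleep, was at 0.531 to 2.67 CPM (median 0.963) on ethanol and 1.997 to 6.3997 CPM (median 4.003) in withdrawal, with a log2 fold change of 1.77 ± 0.38 (SE, unadjusted p = 4.98e-04, q = 0.165). Crh, the corticotropin-releasing hormone gene, which interneurons express in the hippocampus, was at 0.323 to 1.82 CPM (median 0.728) on ethanol and 1.19 to 3.02 CPM (median 1.75) in withdrawal (1.15 ± 0.36, unadjusted p = 0.00693, q = 0.211). Pnoc, the precursor of nociceptin, was at 4.404 to 7.92 CPM (median 5.48) on ethanol and 5.85 to 9.32 CPM (median 8.53) in withdrawal (0.52 ± 0.16, unadjusted p = 0.00696, q = 0.211). In each the groups overlapped by few rats, and ethanol rat 5 was the highest ethanol rat. Without it q was 0.03805, 0.0785 and 0.07799, and 2.26% of all genes were called higher in that fit. Nmb (-0.74) and Tac3 (-0.72) were the 2 lower at that p, and the interneuron peptide genes Sst (0.36), Cck (-0.27) and Vip (-0.18) did not reach it. The median of the list was -0.05 (0.06 over the rats that shared the index). Gad2, a GABA-synthesising enzyme gene, was at 58.4 to 121 CPM (median 77.4) on ethanol and 94.2 to 162 CPM (median 116) in withdrawal (0.62 ± 0.19, unadjusted p = 0.00533, q = 0.205), and Gad1 had a log2 fold change of 0.36. Among 18 interneuron markers 12 were higher and 3 had an unadjusted p under 0.05, while their summed level ranged from 1089 to 1406 CPM in ethanol and from 1201 to 1549 CPM in withdrawal.

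Of 26 BMP, TGF-beta and ID genes, 4 stood out as lower. BMP ligands activate SMAD1, SMAD5 and SMAD8, whose best known targets are the ID genes, inhibitors of helix-loop-helix factors that keep neural stem cells and astrocytes undifferentiated. Id3 was at 42.7 to 55.97 CPM (median 52.7) on ethanol and 32.001 to 40.8 CPM (median 37.97) in withdrawal, a log2 fold change of -0.45 ± 0.08 (SE, unadjusted p = 5.68e-05, q = 0.158). Id1 was at 15.6 to 17.9 CPM (median 16.1) on ethanol and 11.3 to 15.5 CPM (median 12.8) in withdrawal, with a log2 fold change of -0.36 ± 0.08 (SE, unadjusted p = 3.46e-04, q = 0.1597). Every withdrawal rat was below every ethanol rat for both, and the control medians were 41.2 and 12.3 CPM. Smad6, an inhibitory SMAD that BMP induces, was at 3.46 to 4.198 CPM (median 3.84) on ethanol and 1.99 to 3.81 CPM (median 2.705) in withdrawal (-0.50 ± 0.14), and the ligand Bmp4 at 10.8 to 14.7 CPM (median 13.2) on ethanol and 9.53 to 11.4 CPM (median 10.6) in withdrawal (-0.31 ± 0.08). These 4 of the 26 members had an unadjusted p under 0.05 and all were called in the 18-rat model (2.12% of all genes lower) and without ethanol rat 5 (2.17%), with q of 0.0259 and 0.01604 for Id3. Within the shared index their log2 fold changes were -0.39 for Id3, -0.32 for Id1, -0.61 for Smad6 and -0.29 for Bmp4, and with the length trend removed -0.38 for Id3 and -0.32 for Id1. The other 22 members, among them receptors and SMADs, split 12 higher and 10 lower.

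Cholesterol synthesis and ethanol metabolism genes were lower by small amounts. SREBP2 drives the sterol enzymes together when sterol in the endoplasmic reticulum runs low. Of 28 genes 23 were lower and 9 had an unadjusted p under 0.05 in that direction (7.5% of all genes), at a median of -0.13 (-0.10 over the rats that shared the index). Dhcr7, which makes cholesterol in its last step, was at 19.5 to 28.96 CPM (median 25.5) on ethanol and 18.1 to 23.6 CPM (median 20.1) in withdrawal (-0.29 ± 0.10). Sqle, squalene epoxidase, was at 64.8 to 83.5 CPM (median 71.7) on ethanol and 54.6 to 67.4 CPM (median 65.7) in withdrawal (-0.20 ± 0.07). Ethanol rat 5 had the lowest ethanol value of both, and without it the median of the list was -0.15. The myelin and oligodendrocyte list had a median of -0.14 (-0.13 over the rats that shared the index). Ethanol rat 4 was the highest and ethanol rat 5 the lowest ethanol rat for both lists, whereas ethanol rat 2 was above the mean of the 12 rats for the sterol list and below it for the myelin list. The part of oligodendrocyte content in the sterol values was not tested. With the length trend removed, 6 sterol list members were lower at an unadjusted p under 0.05. Aldh2, the mitochondrial enzyme that clears acetaldehyde, was at 74.1 to 106.04 CPM (median 87.5) on ethanol and 54.2 to 84.02 CPM (median 68.4) in withdrawal (-0.36 ± 0.12, unadjusted p = 0.00922, q = 0.225). Its relative Aldh1b1 was at 11.2 to 15.2 CPM (median 12.9) on ethanol and 9.09 to 11.8 CPM (median 10.1) in withdrawal (-0.34 ± 0.09, unadjusted p = 0.00212, q = 0.189), and Acss2, which turns acetate into acetyl-CoA for lipids and histones, at 69.7 to 86.1 CPM (median 77.3) on ethanol and 63.2 to 73.9 CPM (median 69.9) in withdrawal (-0.17 ± 0.05, unadjusted p = 0.00969, q = 0.227). They were the 3 of 13 ethanol and acetate metabolism genes with an unadjusted p under 0.05, of which 10 were lower in all. Control medians were 73.4 CPM for Aldh2, 13.2 for Aldh1b1 and 78.04 for Acss2. Ivd, a leucine-degrading dehydrogenase gene, was at 66.7 to 76.3 CPM (median 72.1) on ethanol and 56.9 to 66.03 CPM (median 59.96) in withdrawal, below the ethanol range in every withdrawal rat (-0.25 ± 0.05, unadjusted p = 1.74e-04, q = 0.158).

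Of 27 oxidative stress and NRF2 genes 18 were lower, and 2 higher and 4 lower had an unadjusted p under 0.05, against 6.86% and 7.5% of all genes. Prdx6, a peroxiredoxin, was at 103 to 126 CPM (median 118) on ethanol and 90.2 to 105 CPM (median 100.3) in withdrawal (-0.24 ± 0.06, unadjusted p = 9.10e-04, q = 0.181), and Hmox1, heme oxygenase 1, had a log2 fold change of 0.65. Of 24 cytosolic heat shock genes 15 were higher, 4 of them with an unadjusted p under 0.05 (6.86% of all genes higher). Among these, Stip1 (0.13), a co-chaperone of HSP70 and HSP90, was above the ethanol range in every withdrawal rat. Mt3, the brain metallothionein, was at 192 to 234 CPM (median 215) on ethanol and 145 to 186 CPM (median 176) in withdrawal, below the ethanol range throughout (-0.30 ± 0.07, unadjusted p = 4.98e-04, q = 0.165), and Mt1, a zinc and glucocorticoid target, had a log2 fold change of -0.52. Of 25 glucocorticoid-responsive genes, Mt1, Map3k6 (-0.99) and Tsc22d3 (-0.31) were lower and Klf9 (0.22) higher at an unadjusted p under 0.05. Of all genes 14.4% reached that p in either direction, so nothing is read from this count. The output gene Tef of the circadian clock was at 269 to 382 CPM (median 329) on ethanol and 222 to 284 CPM (median 257) in withdrawal (-0.36 ± 0.08, unadjusted p = 8.03e-04, q = 0.181). Bhlhe40, a clock repressor, was at 43.01 to 63.2 CPM (median 58.2) on ethanol and 58.7 to 98.8 CPM (median 72.6) in withdrawal (0.43 ± 0.13, unadjusted p = 0.00641, q = 0.207). Clock, the third of 21 clock genes with an unadjusted p under 0.05 (14.4% of all genes), had a log2 fold change of 0.13. Small differences were also found for Marchf2, a membrane ubiquitin ligase gene (-0.32 ± 0.06), and Bola1, a mitochondrial iron-sulfur protein gene (-0.39 ± 0.07), both lower in every withdrawal rat.

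Choroid plexus genes varied among the rats more than any list above. The choroid plexus hangs in the ventricle beside the hippocampus and is easily included in a dissection. Its 12 genes summed to between 1672 and 5903 CPM in the ethanol rats and between 36.2 and 5954 CPM in the withdrawal rats. Ttr, which carries thyroid hormone in the cerebrospinal fluid, was at 1223 to 4739 CPM (median 2376) on ethanol and 20.4 to 4658 CPM (median 1232) in withdrawal (-2.49 ± 1.35, unadjusted p = 0.08902, q = 0.401), and Kl, encoding Klotho, at 53.8 to 184 CPM (median 109.8) on ethanol and 0.693 to 168 CPM (median 44.4) in withdrawal (-2.37 ± 1.11, unadjusted p = 0.0524, q = 0.352). Withdrawal rats 4 and 5 were nearly free of both, and without these 2 rats the median of the list went from -2.09 to -0.28, and it was -0.65 over the rats that shared the index. All 12 genes had negative log2 fold changes, 1 of them with an unadjusted p under 0.05. The 17 tested genes of motile cilia and ependyma, a list added after the values were seen, were lower as well, with a median of -0.54, -0.29 without rats 4 and 5 and -0.44 over the rats that shared the index, and Foxj1, the factor that switches on the cilium genes, at 16.4 to 41.2 CPM (median 30.1) on ethanol and 8.47 to 38.1 CPM (median 13.2) in withdrawal (-0.80 ± 0.37, unadjusted p = 0.0485, q = 0.347). All 16 thalamic and habenular markers had negative log2 fold changes, none with an unadjusted p under 0.05, at a median of -0.48. That median was −0.27 without ethanol rat 1, which had the highest level of these markers, -0.28 without withdrawal rats 4 and 5 and -0.33 over the rats that shared the index. Prkcd, a thalamic marker, was at 53.7 to 566 CPM (median 105) on ethanol and 36.6 to 166 CPM (median 80.1) in withdrawal. The part of these tissues in the genes above was not tested, apart from the values without rats 4 and 5.

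Markers of neuronal subfields and of the remaining glia differed in few members. Of 12 markers of CA2 and CA3 9 were lower, and Bok, a BCL2 family gene of CA3, was at 71.5 to 149 CPM (median 86.5) on ethanol and 29.9 to 81.2 CPM (median 60.1) in withdrawal (-0.72 ± 0.24, unadjusted p = 0.00917, q = 0.225). CA1 and dentate gyrus markers had medians of 0.12 and -0.08, each with 1 member, Dcn (-0.31) and Dsp (-0.82), at an unadjusted p under 0.05. Nhlh1, a factor of newborn neurons, was at 1.77 to 6.85 CPM (median 5.49) on ethanol and 0.489 to 5.64 CPM (median 2.24) in withdrawal (-1.05 ± 0.48, unadjusted p = 0.0484, q = 0.346). Of the 21 neurogenesis genes 13 were higher and 8 lower, at a median of 0.03. Nhlh1, Nhlh2 (-0.87) and Igfbpl1 (-1.03) were lower and Nes (0.27), the nestin gene, higher at an unadjusted p under 0.05, and with the length trend removed 1 was lower and 2 higher at that p. Myelin genes were lower in 16 of 19 cases, 4 of them with an unadjusted p under 0.05, and Opalin, a membrane protein of mature oligodendrocytes, was at 203 to 428 CPM (median 319.8) on ethanol and 180.5 to 253 CPM (median 225) in withdrawal (-0.50 ± 0.16, unadjusted p = 0.00992, q = 0.229). The summed level of the myelin list was 15147 to 22005 CPM in ethanol and 15058 to 18436 CPM in withdrawal, so the withdrawal range lay almost wholly within the ethanol range. Endothelial, mural and precursor lists had medians of -0.05, 0.07 and -0.12.

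**Figure D5:**
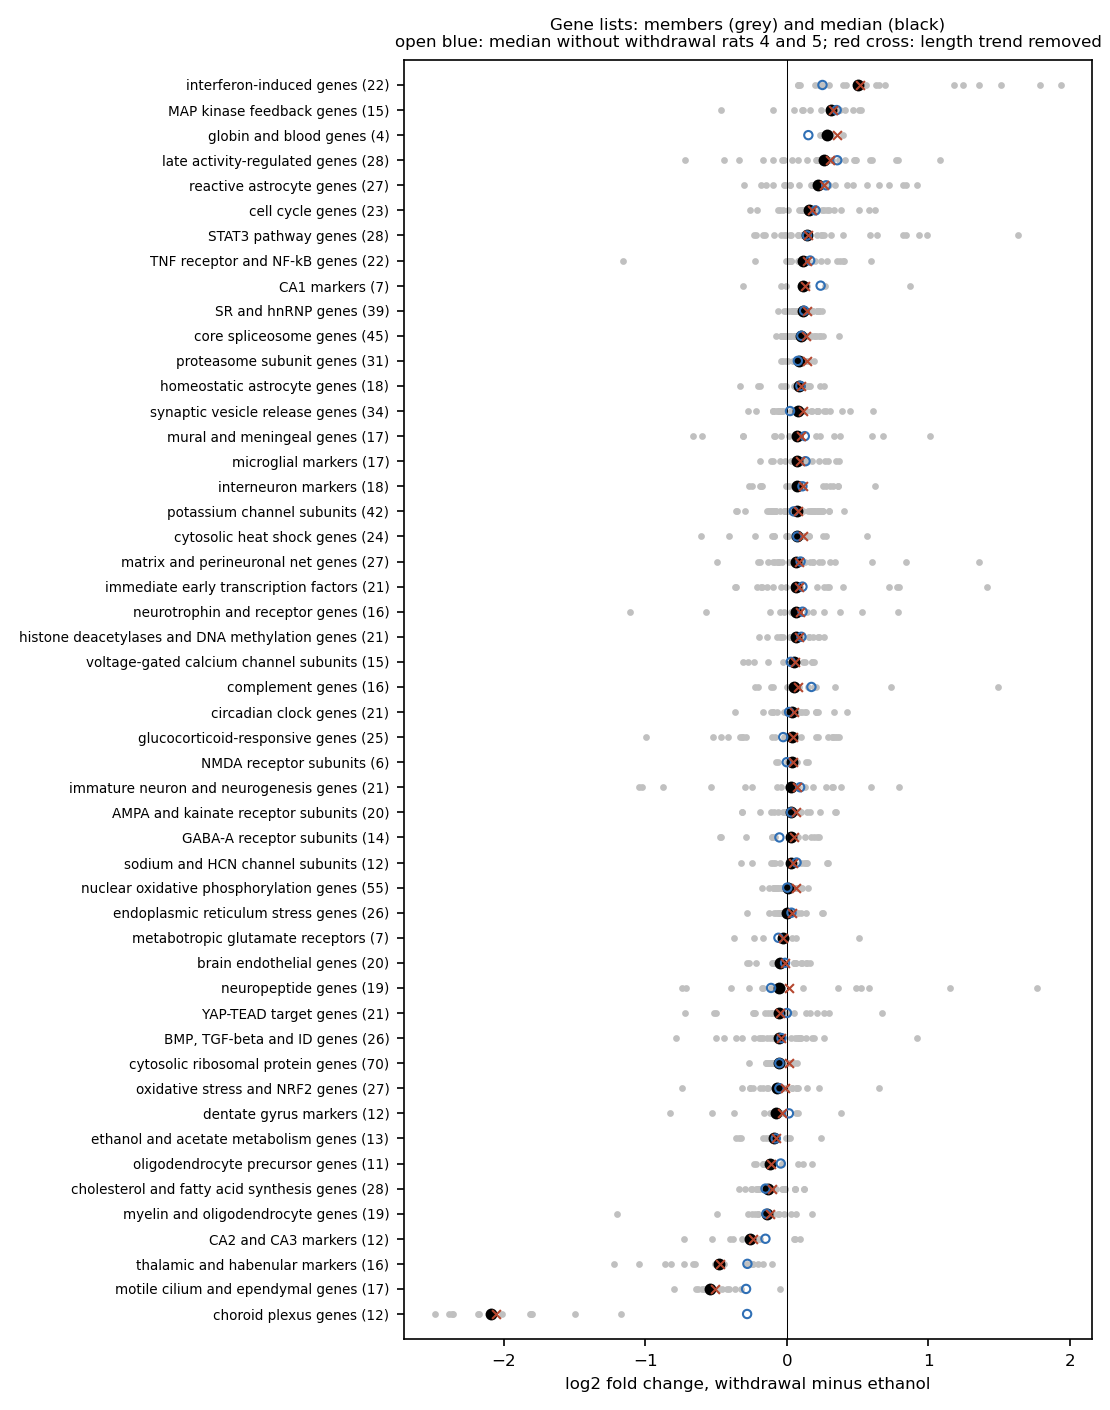
Each row is a gene list with the number of members tested in brackets, grey points are the log2 fold changes (withdrawal minus ethanol) of its members, the black point is their median, the open blue circle the median without withdrawal rats 4 and 5, and the red cross the median with the length trend removed. Interferon-induced genes stand at the top with a median of 0.51 and choroid plexus genes at the bottom with -2.09, and both medians move toward 0 without rats 4 and 5.

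The promoters of the separated genes were compared with those of all tested genes for 5 further motifs, searched on both strands. TTCNNNGAA, a STAT site, occurred in 13 of 77 promoters of genes above the ethanol range (16.9%), in 5 of 83 of those below it (6.02%) and in 6.85% of the promoters of tested genes. The interferon core, which can share its GAA with such a site, occurred in 14.3%, 6.02% and 7.32%. CACGTG, an E-box, occurred in 13% of the first, 13.3% of the second and 9.01% of the third, and TGACTCA, an AP-1 site, in 2.6%, 9.64% and 3.42%. TGACGTCA, the cyclic AMP response element, occurred in 2.6%, 3.61% and 2.98%, and GCGTGGGCG, an Egr site, in 0 of 77, 0 of 83 and 1.06%. Among the 22 promoters of late activity-regulated genes, 4 held the cyclic AMP response element (18.2%) and 6 the E-box (27.3%). Of the same promoters 2 held the STAT site (9.09%), 1 the interferon core (4.55%) and 0 the AP-1 or the Egr site. The STAT site occurred in 6 of 17 promoters of interferon-induced genes (35.3%) and in 3 of 19 of STAT3 pathway genes (15.8%). These shares describe the windows searched, and no test was made of them.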

How the data were processed

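Total RNA of the dorsal hippocampus was sequenced as stranded, paired-end libraries. Reads had been placed on Rnor_6.0 by STAR 2.5.2a. The authors deposited whole-number counts, which featureCounts 1.5.0 had summed over the exons of each gene by strand, with no normalization and, per the file headers, no option to count reads that mapped to several places. Of 38445 identifiers, 29322 were named from the RefSeq table of assembly GRCr8 (names and promoters only). Counts were scaled by the TMM method of edgeR 4.0.16, genes above 0.5 CPM in at least 6 of the 12 libraries were kept, and the 22109 others were not tested. The groups come from the sample labels, with 6 rats each. Genes were tested two-sided with limma 3.58.1 (voom, lmFit, eBayes) in R 4.3.3, with the group as the only term, and q is the Benjamini-Hochberg value over the 16336 genes. Fold changes are log2, withdrawal minus ethanol, with SE. CPM ranges are given over the 6 rats of a group. The study's number of surrogate variables is not given in the sources used here, so fits with 1 to 3 (sva 3.50.0) are alternatives, as are edgeR's quasi-likelihood test, DESeq2 1.42.0, sample quality weights, all 18 rats in one model, other scalings and filters, an index term and leaving out each rat. Chi-square comparison of counts between rats of the same group found no library deposited more than once within a group, and libraries of different groups were not compared.

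Members and lists were chosen with earlier results of these data known. The genes to be named were to be the 15 largest differences in each direction among called genes without overlap that have an assigned symbol and a mean of at least 1 CPM in a group, up to 5 called members of each list by lowest q, 6 genes that the study names (Stat3, Socs3, Gfap, Osmr, Timp1, Tnfrsf1a), and, for lists with none called, up to 2 members of largest difference. As 0 genes were called, the first part was applied without the call, and the list members named are those with the lowest p or a role in the pathway, chosen after their values were seen. The mitochondrial genome protein list matched no gene of the files. Nothing in the labels ties a rat to a litter, so p-values measure the spread between these animals. The authors' coexpression modules and quantitative PCR were not used here, and some genes are not reported here.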

Additional observations from a re-analysis of the deposited data

Results flagged for a closer look

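The values here stood apart from the other 5 rats of their group, the gap to the next rat exceeding Dixon's limit for groups of 6. Of 212 sets of 6 values examined (1 measure in 1 group of rats), 24 had such a gap. The limit is passed in about 1 in 20 groups when values are normally distributed and measures are fixed beforehand. Many of these genes were chosen after their values were seen, and the sets share the same rats. The count is therefore not set against that rate. Withdrawal rat 1 was the highest withdrawal rat for Nfkb2 (7.95 CPM), Osmr (13.8), Timp1 (18.9), Lif (3.68), Upp1 (12.6), Bdnf (99.7), Inhba (59.3), Fos (26.7), Pcbp1 (172) and Nasp (107).

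Ethanol rat 5 was the highest ethanol rat for Socs3 (2.81 CPM), Bdnf (54.1), Fos (68.1), Prpf8 (349.6), Pcbp1 (148) and Arhgap19 (5.40). Withdrawal rat 5 was the lowest of its group for Gfap (642 CPM) and Mt3 (145), and withdrawal rat 4 for Traf1 (0.166). Ethanol rat 1 was the highest for Atp2a1 (4.96 CPM) and the lowest for Nasp (22.8). Mcm3 was highest in ethanol rat 4 (2.02 CPM) and Myh2 in withdrawal rat 6 (5.40 CPM). In the contrast of long against short genes, ethanol rat 1 lay at −0.106 on the log2 scale, and the next ethanol rat at −0.021.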

How the results depend on the processing

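Called genes numbered 722 with DESeq2 (377 higher, 345 lower), 1140 with sample quality weights (567 and 573), 697 with all 18 rats (351 and 346), 150 with 1 surrogate variable (50 and 100) and 530 with all 18 rats and 3 surrogate variables (235 and 295). Under alternatives chosen after seeing the data, they numbered 230 without withdrawal rat 1 and ethanol rat 5 (115 and 115), 235 in the 18-rat model without withdrawal rat 1 (120 and 115), 2062 in that model without ethanol rat 5 (1044 and 1018) and 134 in it without withdrawal rats 4 and 5 (66 and 68). Leaving out 1 rat gave 0 to 724 called genes (0 to 370 higher, 0 to 354 lower), above 0 only without ethanol rat 5 (724) and without withdrawal rat 2 (9). The other scalings and filters, q < 0.05, 2 or 3 surrogate variables, edgeR, the index term, the shared index alone, the length trend removed and leaving out withdrawal rats 4 and 5 gave 0. Genes without overlap (197 in all 12 rats) numbered 140 with the length trend removed, 1157 within the shared index, 467 without withdrawal rats 4 and 5, 846 without withdrawal rat 1 and ethanol rat 5, and 224 to 736 without 1 rat (highest without ethanol rat 5), where fewer rats make separation easier.

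With a replicate block 0 genes were called and 1845 had an unadjusted p under 0.05. Deviations of same-numbered rats correlated from −0.335 to 0.462, and 1 ethanol rat correlated best with its own number, so the numbers were not taken as pairs.

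Of 150 named genes, 4 turned direction in some setting. Fos (−0.18) was at 0.13 with the index term, 0.13 within the shared index, 0.091 without withdrawal rat 1 and ethanol rat 5 and 0.24 in the 18-rat model without ethanol rat 5, and from −0.37 to 0.24 without 1 rat, positive without ethanol rat 5. Gabrd was at 0.0085 with 3 surrogate variables and 0.0084 with these and 18 rats. Prkcd was at 0.21 with 2 surrogate variables, 0.17 with 3 and 0.24 with 3 and 18 rats. Vip was from −0.30 to 0.089 without 1 rat, positive without ethanol rat 1. The cause was not tested. The median of 27 of the 51 lists turned sign in at least 1 setting, and medians near 0 such as those of the neuropeptide (−0.09 to 0.07 without 1 rat) and GABA-A receptor lists (−0.07 to 0.05) turned sign when single rats were left out.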
